A study of Mus musculus with 12 samples.

Results

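Cish and Socs1 to Socs7, the 8 genes of the suppressor of cytokine signalling (SOCS) family, were followed in peritoneal exudate cells of mice that received interferon beta (IFN-β). The members were taken as every non-control probe whose gene name in the array annotation was one of these 8 symbols, which gave 14 of 41174 probes and 8 of 27670 genes. All 8 genes and 13 of the 14 probes passed the filter on dim probes. The probe used for each gene was well above background on all 12 arrays, so no member entered the tests through a single group.

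Peritoneal exudate cells are a mixture, washed out of the abdominal cavity with cold saline and lysed without sorting. RNA came from female mice of 8 weeks on the 129S2/SvPas*BALB/c strain, either wild type or Ifnar2-/-, a genotype without the gene of one subunit of the type I interferon receptor. Each mouse was injected into the peritoneal cavity with IFN-β, stated as 10000 IU/ml without a volume, or with phosphate-buffered saline (PBS), and the cells were lysed 3 hours later. The 4 groups were wild type with PBS, wild type with IFN-β, Ifnar2-/- with PBS and Ifnar2-/- with IFN-β, with 3 arrays in each from different mice. The labels do not say how the Ifnar2 allele was made, and the title of the series asks about IFN-β signalling through Ifnar1, the other receptor subunit.

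Values are given as log2 signal, which is log2 of the deposited spot intensity minus the 75th percentile of the same array, so that 0 is the brightness of a probe at that percentile. Levels of different probes are not comparable with each other, and only differences between groups were tested. Tests were made with limma over all 18274 genes measured, two-sided, with Benjamini-Hochberg adjustment and a threshold of 0.05. Between 59.4 and 71.6% of probes were well above background on an array, and the 4 arrays of slide 3, all Ifnar2-/-, had the lowest shares, 59.4 to 62.5%. One Ifnar2 probe was lower in Ifnar2-/- after PBS by 1.85 (limma adjusted p = 5.5e-05), whereas the other was higher by 0.96 (limma adjusted p = 0.0149). The position of these probes relative to the deleted part is not given, so neither checks the genotype labels. A change in bulk RNA cannot tell a change in the number of cells of a type from a change in RNA per cell.

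SOCS proteins are feedback inhibitors of the JAK-STAT pathway, in which a cytokine receptor activates JAK kinases and these activate STAT transcription factors. Many SOCS genes are themselves switched on by STATs, and their products then bind JAKs or receptor tails through an SH2 domain. The SOCS box, the domain that gives the family its name, recruits elongins B and C and cullin 5, which together form an E3 ubiquitin ligase. SOCS1 also blocks JAK1, JAK2 and TYK2 directly and is known as the main brake on interferon signalling, while SOCS3 acts mainly on receptors that use gp130, such as the interleukin 6 receptor.

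The promoters of 3 members are shown because STAT factors that act downstream of cytokines bind known DNA motifs there. RefSeq windows from 250 bases before to 50 after the gene start were available for Cish, Socs1, Socs3 and Socs4 (GRCm38.p6), 4 of the 8 members, and Socs2, Socs5, Socs6 and Socs7 are only named. The interferon-stimulated response element (ISRE) core was searched as a pair of GAAA with 2 bases of any kind between them, and the gamma-activated sequence (GAS) as TTCNNNGAA, on both strands, and capitals mark the matches. The Socs1 stretch is the 250 bases before the start at chr16:10785537-10785786, minus strand, and the other 2 are 30 bases around their matches, for Socs3 at chr11:117969501-117969530, minus strand, and for Cish at chr9:107296654-107296683, plus strand.
Socs1: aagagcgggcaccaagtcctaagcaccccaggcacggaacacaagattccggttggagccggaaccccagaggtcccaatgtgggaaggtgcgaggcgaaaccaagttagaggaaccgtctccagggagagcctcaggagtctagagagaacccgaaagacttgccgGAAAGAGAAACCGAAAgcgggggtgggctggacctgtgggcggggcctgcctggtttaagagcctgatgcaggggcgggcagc
Socs3: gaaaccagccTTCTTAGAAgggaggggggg
Cish: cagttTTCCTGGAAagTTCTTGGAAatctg
The Socs1 window held 2 overlapping ISRE core matches, GAAAGAGAAA from -83 to -74 and GAAACCGAAA from -77 to -68 relative to the start, and no GAS match. The Socs3 window held 1 GAS match, TTCTTAGAA from -154 to -146, and no ISRE core. In Cish, 2 GAS matches lay from 1 to 9 and from 12 to 20 after the start, again with no ISRE core, and the Socs4 window held neither motif. Of 32851 mouse windows of this length, 1131 (3.44%) held the ISRE core and 2726 (8.3%) the GAS. These are matches of letters, and binding was not measured.

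In wild-type cells, IFN-β was followed by higher Socs1, Socs2, Socs3, Socs6 and Socs7 and by lower Socs5. Socs1 moved most, 42.2-fold, followed by Socs2 at 3.06-fold and Socs3 at 2.55-fold, while Cish and Socs4 did not pass the test. In all, 6 of the 8 members passed, 5 upward and 1 downward, where 39.4% of all genes tested passed in the same comparison, 17.6% upward and 21.8% downward. The median log2 change of the members was 0.83, against -0.04 over all genes. The wild-type groups did not overlap for 7 of the 8 members, Cish being the one that did, where the same held for 53.7% of all genes.

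Socs1, the JAK inhibitor most tied to interferon, had log2 signals of 0.58, 0.47 and -0.03 on the wild-type PBS arrays and of 5.86, 5.54 and 5.81 on the wild-type IFN-β arrays. Every IFN-β array lay far above every PBS array, and the 3 IFN-β arrays lay close together. The group means were 0.34 ± 0.32 and 5.74 ± 0.17 (SD, n = 3 each). Socs1 rose by 5.40 on the log2 scale (SE 0.41, 95% interval 4.50 to 6.30, limma adjusted p = 3.5e-06). On slide 1, which held 1 IFN-β and 3 PBS arrays of wild type, the difference was 5.52.

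Socs3, the inhibitor of gp130 receptors, had log2 signals of 5.08, 5.02 and 4.96 with PBS and of 6.14, 6.32 and 6.65 with IFN-β. The groups were apart, with means of 5.02 ± 0.06 and 6.37 ± 0.26 (SD, n = 3 each). Socs3 rose by 1.35 (SE 0.24, 95% interval 0.83 to 1.88, limma adjusted p = 0.0011). The difference on slide 1 was 1.13. The Socs3 probe was very bright, with unscaled intensities of 51386, 59277 and 66208 on these IFN-β arrays and 66852 on Ifnar2-/- IFN-β array 2. None was flagged as saturated. Whether so bright a probe still rises in proportion to its RNA was not tested.

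**Figure D1:**
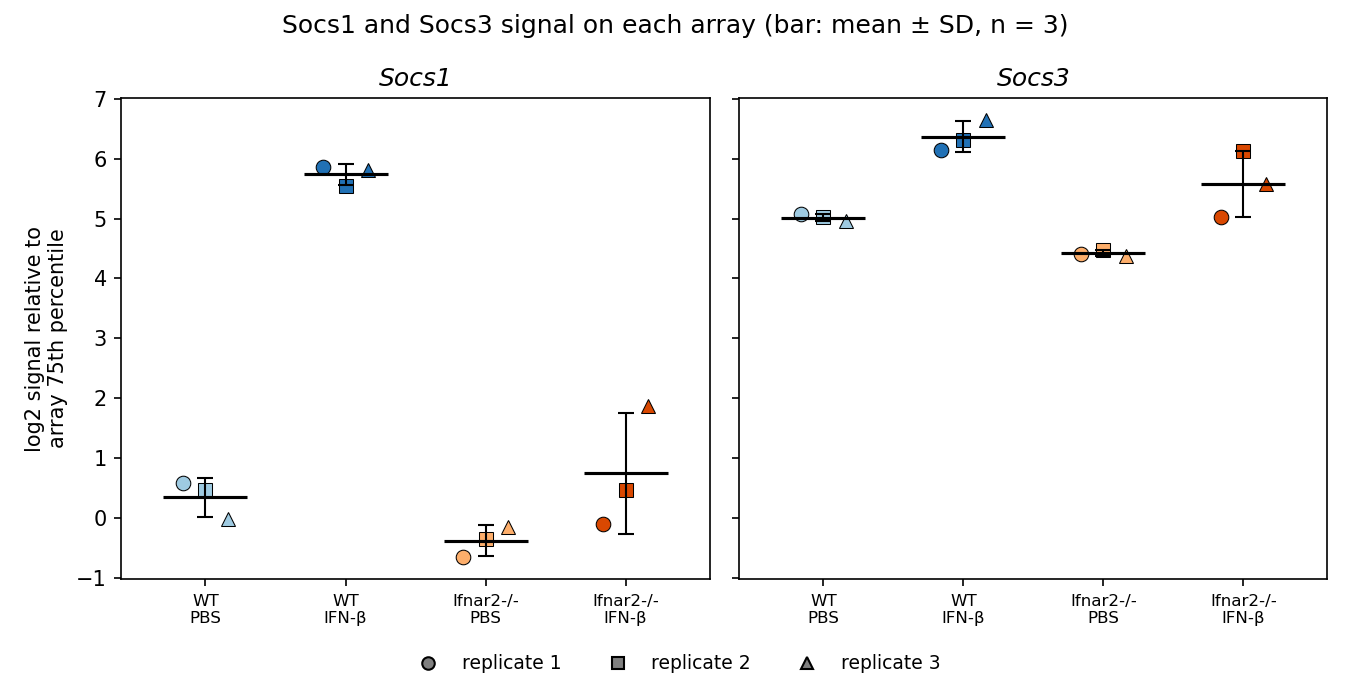
Log2 signal of Socs1 and Socs3 (vertical axis, relative to the 75th percentile of the array) in the 4 groups, with 1 point per array, the marker shape giving the replicate number and bars the mean ± SD of 3 arrays. Socs1 reached 5.54 to 5.86 in wild type with IFN-β and at most 1.87 in Ifnar2-/- with IFN-β, whereas the Socs3 arrays of Ifnar2-/- with IFN-β lay at 5.02 to 6.13, above their own PBS arrays at 4.38 to 4.47.

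In Ifnar2-/- cells none of the 8 members passed the limma test after IFN-β, where 1.13% of all genes tested passed, 0.925% upward and 0.208% downward. At an unadjusted p under 0.05, 4 of the 8 members did (Cish, Socs1, Socs3 and Socs7), as did 3353 of the 18274 genes. The same 4 members had groups that did not overlap, where 23.4% of all genes did. Their median log2 change over all 8 members was 0.39, against -0.05 over all genes.

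The Socs3 signal in Ifnar2-/- was 4.42, 4.47 and 4.38 with PBS and 5.02, 6.13 and 5.58 with IFN-β. All 3 IFN-β arrays lay above all 3 PBS arrays, but they were spread more widely than in wild type, with means of 4.42 ± 0.05 and 5.57 ± 0.56 (SD, n = 3 each). The difference was 1.15 (SE 0.24, 95% interval 0.63 to 1.68), a 2.22-fold change, with a limma adjusted p of 0.0501 that just missed the threshold. When every kept probe was fitted, rather than 1 a gene, the same probe gave 1.15 with a limma adjusted p of 0.0487, which passed. The call went either way with the settings. It passed under 5 of 24 alternatives, the adjusted p running from 0.0105 to 0.279, and the value from 0.88 to 1.43 stayed above 0 in all 24. The lowest of those p came with Ifnar2-/- IFN-β array 1 left out, when the difference was 1.43. On slide 2, with 1 array of each kind, the difference was 0.60, and on slide 3, with 2 of each, it was 1.43.

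Socs1 in Ifnar2-/- was -0.66, -0.35 and -0.15 with PBS and -0.10, 0.46 and 1.87 with IFN-β. The groups were barely apart, and IFN-β array 3 stood well above the other 2. The difference of 1.13 (SE 0.41, 95% interval 0.23 to 2.03) did not pass, with a limma adjusted p of 0.188. Without IFN-β array 3 it was 0.57, with a limma adjusted p of 0.381, and over the 24 alternatives that p ran from 0.0655 to 0.414. Within slide 2 the difference was 0.56 and within slide 3 it was 1.42.

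The difference between the responses asks which of them depends on Ifnar2. The response of Socs1 differed between the genotypes and that of Socs3 was not shown to differ. The Ifnar2-/- response of Socs1 was lower than the wild-type response by 4.27 on the log2 scale (difference -4.27, SE 0.57, 95% interval -5.54 to -3.00, limma adjusted p = 0.00056). For Socs3 the same difference was -0.20 (SE 0.33, 95% interval -0.94 to 0.54, limma adjusted p = 0.766), and its sign turned with quantile scaling (0.10), without scaling (0.08), with slide as a block (0.03) and without Ifnar2-/- IFN-β array 1 (0.08). That interval still allows an Ifnar2-/- response of Socs3 well under the wild-type one, and it does not reach the interval of Socs1. The difference between the 2 genes was not itself tested, nor was whether the brightness of the Socs3 probe limited its changes. Of the 8 members, 2 passed this test, Socs1 and Socs2, both with the lower response in Ifnar2-/-, where 17.8% of all genes passed, 9.09% in that direction and 8.68% in the other. All 4 groups enter this contrast, so it is not independent of the responses in each genotype.

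**Figure D2:**
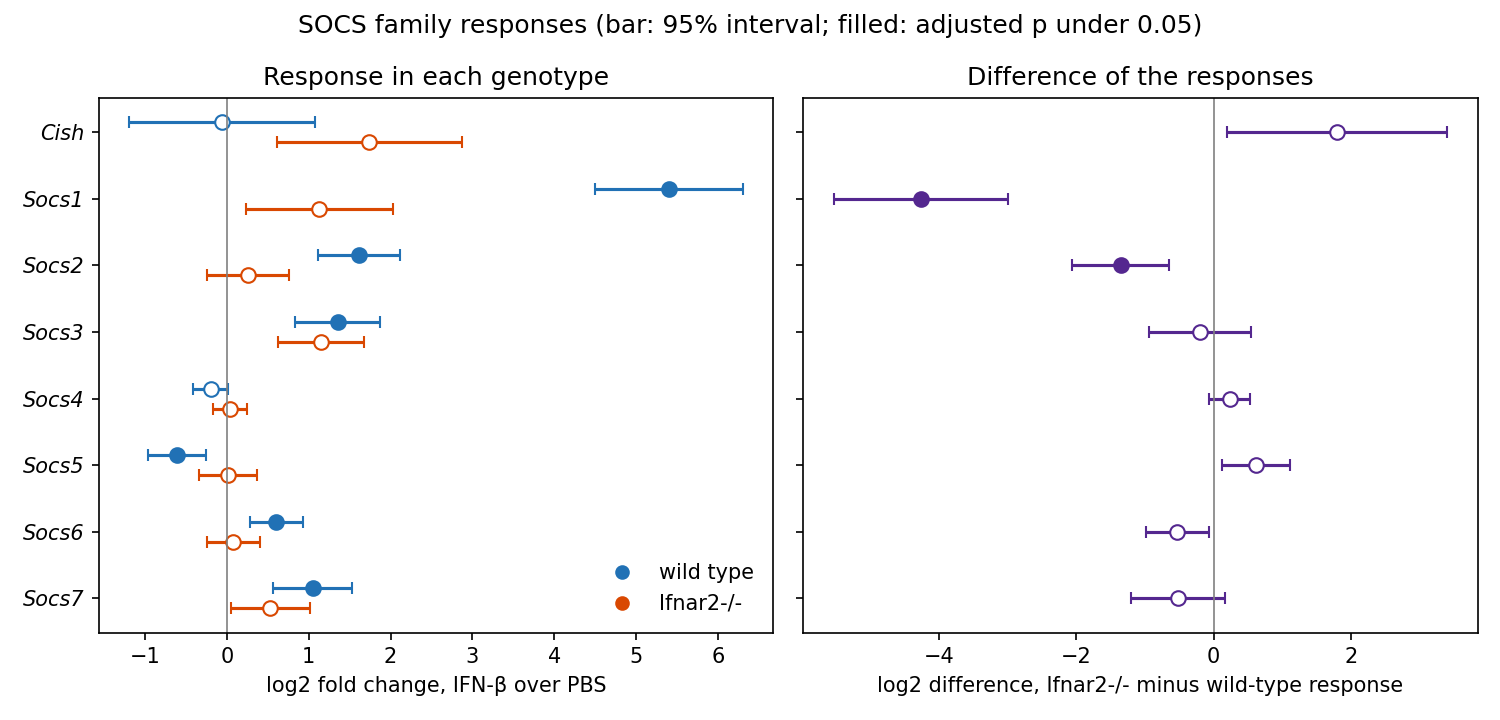
Log2 fold change of IFN-β over PBS for each member by genotype (left) and the Ifnar2-/- response minus the wild-type response (right), with 95% intervals and filled points where the limma adjusted p was under 0.05. Socs1 stood at 5.40 in wild type and 1.13 in Ifnar2-/-, while the intervals of Socs3, around 1.35 and 1.15, largely overlapped.

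After IFN-β, 6 of the 8 members differed between the genotypes, where 38.5% of all genes did, 21.3% higher and 17.2% lower. Socs1, Socs2, Socs3 and Socs7 were lower in Ifnar2-/- and Socs4 and Socs5 higher, and the groups did not overlap for 5 of the 8 members (Socs1 to Socs5), against 46.8% of all genes. Socs1 was lower by 4.99 (difference -4.99, SE 0.41, limma adjusted p = 5.9e-06), and on slide 2, with 1 Ifnar2-/- and 2 wild-type arrays, the difference was -5.78. Socs3 was lower by much less (difference -0.80, SE 0.24, limma adjusted p = 0.0221, and -1.46 on slide 2). The call for Socs3 was lost without wild-type IFN-β array 3 (adjusted p = 0.0793), without Ifnar2-/- IFN-β array 1 (adjusted p = 0.0555), with quantile scaling (-0.59), without scaling (-0.42) and with the 2 IFN-β groups alone (-0.80). Its adjusted p ran from 0.0023 to 0.195 over 23 alternatives.

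After PBS alone, none of the 8 members differed between the genotypes by the limma test, where 4.88% of all genes did, 2.85% higher and 2.04% lower in Ifnar2-/-. At an unadjusted p under 0.05, 2 members did, Socs3 and Socs6, as did 3699 of the 18274 genes. Socs3 was nevertheless lower on every Ifnar2-/- PBS array than on every wild-type one, by 0.60 (difference -0.60, 95% interval -1.12 to -0.07, limma adjusted p = 0.193). With only the PBS arrays in the fit that p was 0.0235, and over 23 alternatives it ran from there to 0.584, with differences of -1.22 (slide as a block) to -0.50 (no scaling). The differences of Socs1, -0.73 (limma adjusted p = 0.342), and of Cish, -0.85 (limma adjusted p = 0.374), were of similar size and more scattered. The PBS groups did not overlap for 5 of the 8 members (Cish, Socs1, Socs3, Socs4 and Socs6), against 29.1% of all genes. For Socs4 the probes went in opposite directions. The chosen one was 0.16 higher in Ifnar2-/-, and the others gave -0.43 and -0.16 in the fit over probes (limma adjusted p = 0.126 and 0.607). No slide held PBS arrays of both genotypes, so slide and genotype cannot be told apart here.

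Ordered by group mean, Socs1 and Socs3 gave the same sequence, from Ifnar2-/- PBS through wild-type PBS and Ifnar2-/- IFN-β to wild-type IFN-β. The arrays of wild-type PBS and Ifnar2-/- IFN-β overlapped for both genes, with means 0.40 apart for Socs1 and 0.56 apart for Socs3. For Socs1 the last step of 4.99 dwarfed the others, whereas for Socs3 the 3 steps were 0.60, 0.56 and 0.80.

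Cish, the family's first described member and a STAT5 target that restrains interleukin 2 and growth factor receptors, did not follow Socs1. Its log2 signal was 0.99, 0.72 and 0.53 in wild type with PBS and 0.70, 0.55 and 0.81 with IFN-β, and these groups overlapped. In Ifnar2-/- it was -0.15, -0.28 and 0.11 with PBS and 0.47, 1.29 and 3.14 with IFN-β, so the groups were apart and IFN-β array 3 was the highest of all 12 arrays. The wild-type difference was -0.06 (limma adjusted p = 0.949). That in Ifnar2-/- was 1.74 (SE 0.51, 95% interval 0.61 to 2.87, limma adjusted p = 0.125). It was 0.63 on slide 2 and 2.30 on slide 3.

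The Cish calls turned on single arrays. Without Ifnar2-/- IFN-β array 1 the Ifnar2-/- response was 2.32 and passed (limma adjusted p = 0.0341), and without array 3 it was 0.99 and did not (limma adjusted p = 0.118); the 24 alternatives ran from 0.0341 to 0.371. The difference of the responses, 1.80 (limma adjusted p = 0.122), passed without array 1 (2.38, adjusted p = 0.0201) and without array 3 (1.05, adjusted p = 0.0452), and reached 0.232 over 23 alternatives. After PBS, the genotype difference of Cish passed with Ifnar2-/- IFN-β array 3 out of the fit (-0.85, limma adjusted p = 0.0459) and with the PBS groups alone (adjusted p = 0.0418), the 23 alternatives running from there to 0.9999. After IFN-β, the genotype difference was 0.95 (limma adjusted p = 0.170), passing at 1.53 without Ifnar2-/- array 1 (adjusted p = 0.0192) and falling short at 0.19 without array 3 (adjusted p = 0.554), the 23 alternatives reaching 0.743 with slide as a block (0.35).

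Socs2, which acts on growth hormone receptor signalling, was 0.43, -0.10 and 0.25 in wild type with PBS and 1.99, 1.86 and 1.57 with IFN-β. In Ifnar2-/- it was 0.16, 0.37 and 0.31 with PBS and 0.41, 0.16 and 1.05 with IFN-β. The wild-type groups were clearly apart and the Ifnar2-/- groups overlapped. Socs2 rose by 1.61 in wild type (SE 0.23, limma adjusted p = 0.00028), and its Ifnar2-/- change was 0.26 (limma adjusted p = 0.587). Its response was lower in Ifnar2-/- by 1.36 (difference -1.36, SE 0.32, limma adjusted p = 0.0149), a call lost without scaling (-1.08, adjusted p = 0.0612, the highest of 23 alternatives that began at 0.0017). A second Socs2 probe changed by 2.67 in wild type and by -0.04 in Ifnar2-/-, both from the fit over probes, and its difference of -2.71 had a limma adjusted p of 0.0025.

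Socs5 and Socs4, close relatives with long N-terminal regions, moved the other way in wild type or not at all. Socs5 was -0.86, -0.83 and -0.50 with PBS and -1.32, -1.36 and -1.34 with IFN-β. In Ifnar2-/- it was -0.56, -0.51 and -0.41 with PBS and -0.15, -0.53 and -0.76 with IFN-β. The wild-type IFN-β arrays formed the lowest and tightest group. Socs5 fell by 0.61 in wild type (change -0.61, SE 0.16, limma adjusted p = 0.0113; -0.59 and adjusted p = 0.101 with slide as a block, the highest of 24 alternatives that began at 0.0041). After IFN-β it was higher in Ifnar2-/- by 0.86 (limma adjusted p = 0.0017), and by 1.20 on slide 2. The difference of its responses was 0.62 (limma adjusted p = 0.085), which passed without Ifnar2-/- IFN-β array 3 (0.77, adjusted p = 0.0233) and without scaling (0.90, adjusted p = 0.029), the range over 23 alternatives reaching 0.234.

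On its chosen probe, Socs4 stayed within a narrow band, from -0.70 to -0.40 in wild type and from -0.39 to -0.18 in Ifnar2-/-. The Ifnar2-/- change of that probe was 0.04 (limma adjusted p = 0.861). The other 2 probes changed by 0.48 and 0.42 there, without passing in the fit over probes (limma adjusted p = 0.150 and 0.166). The wild-type change of the chosen probe was -0.20 (limma adjusted p = 0.131). It was higher in Ifnar2-/- after IFN-β by 0.39 (limma adjusted p = 0.0082), and by 0.48 on slide 2. The other 2 Socs4 probes gave 0.18 and 0.14 in the fit over probes, and the mean of the 3 gave 0.24 with a limma adjusted p of 0.122, the highest of 23 alternatives that began at 0.00063. The call for Socs4 therefore held for 1 of its 3 probes.

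Socs6 and Socs7, members tied to insulin receptor signalling, were higher with IFN-β in wild type. Socs6 was 0.30, 0.43 and 0.52 with PBS and 1.10, 0.84 and 1.14 with IFN-β in wild type, and 0.91, 0.72 and 0.81 against 0.77, 0.73 and 1.18 in Ifnar2-/-. Wild-type PBS was the one group below the other 3. Socs6 rose by 0.61 in wild type (SE 0.14, limma adjusted p = 0.0070), a call lost without scaling (0.44, adjusted p = 0.0674) and with slide as a block (0.68, adjusted p = 0.0574) among 24 alternatives that began at 0.0019. The other 2 Socs6 probes that passed the filter gave 0.48 and 0.27, and the fourth was above background on none of the 12 arrays. The difference of the responses was -0.53 (limma adjusted p = 0.109), and -0.67 without Ifnar2-/- IFN-β array 3, where it passed (adjusted p = 0.0202, the range over 23 alternatives reaching 0.522).

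Socs7 was at -3.68, -3.40 and -3.83 with PBS and -2.48, -2.86 and -2.42 with IFN-β in wild type. In Ifnar2-/- it was -3.83, -3.81 and -3.67 with PBS and -2.72, -3.54 and -3.45 with IFN-β. Socs7 rose by 1.05 in wild type (SE 0.22, limma adjusted p = 0.0031), with a difference of 1.16 on slide 1. Its Ifnar2-/- change of 0.53 (limma adjusted p = 0.232) was 1.11 on slide 2 and 0.24 on slide 3. The genotype difference after IFN-β was -0.65 (limma adjusted p = 0.0357) but -0.09 on slide 2, and 9 of 23 alternatives lost it, among them leaving out wild-type PBS array 1, wild-type IFN-β array 1 or 3, or Ifnar2-/- IFN-β array 2 or 3. The adjusted p ran from 0.0030 to 0.378.

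**Figure D3:**
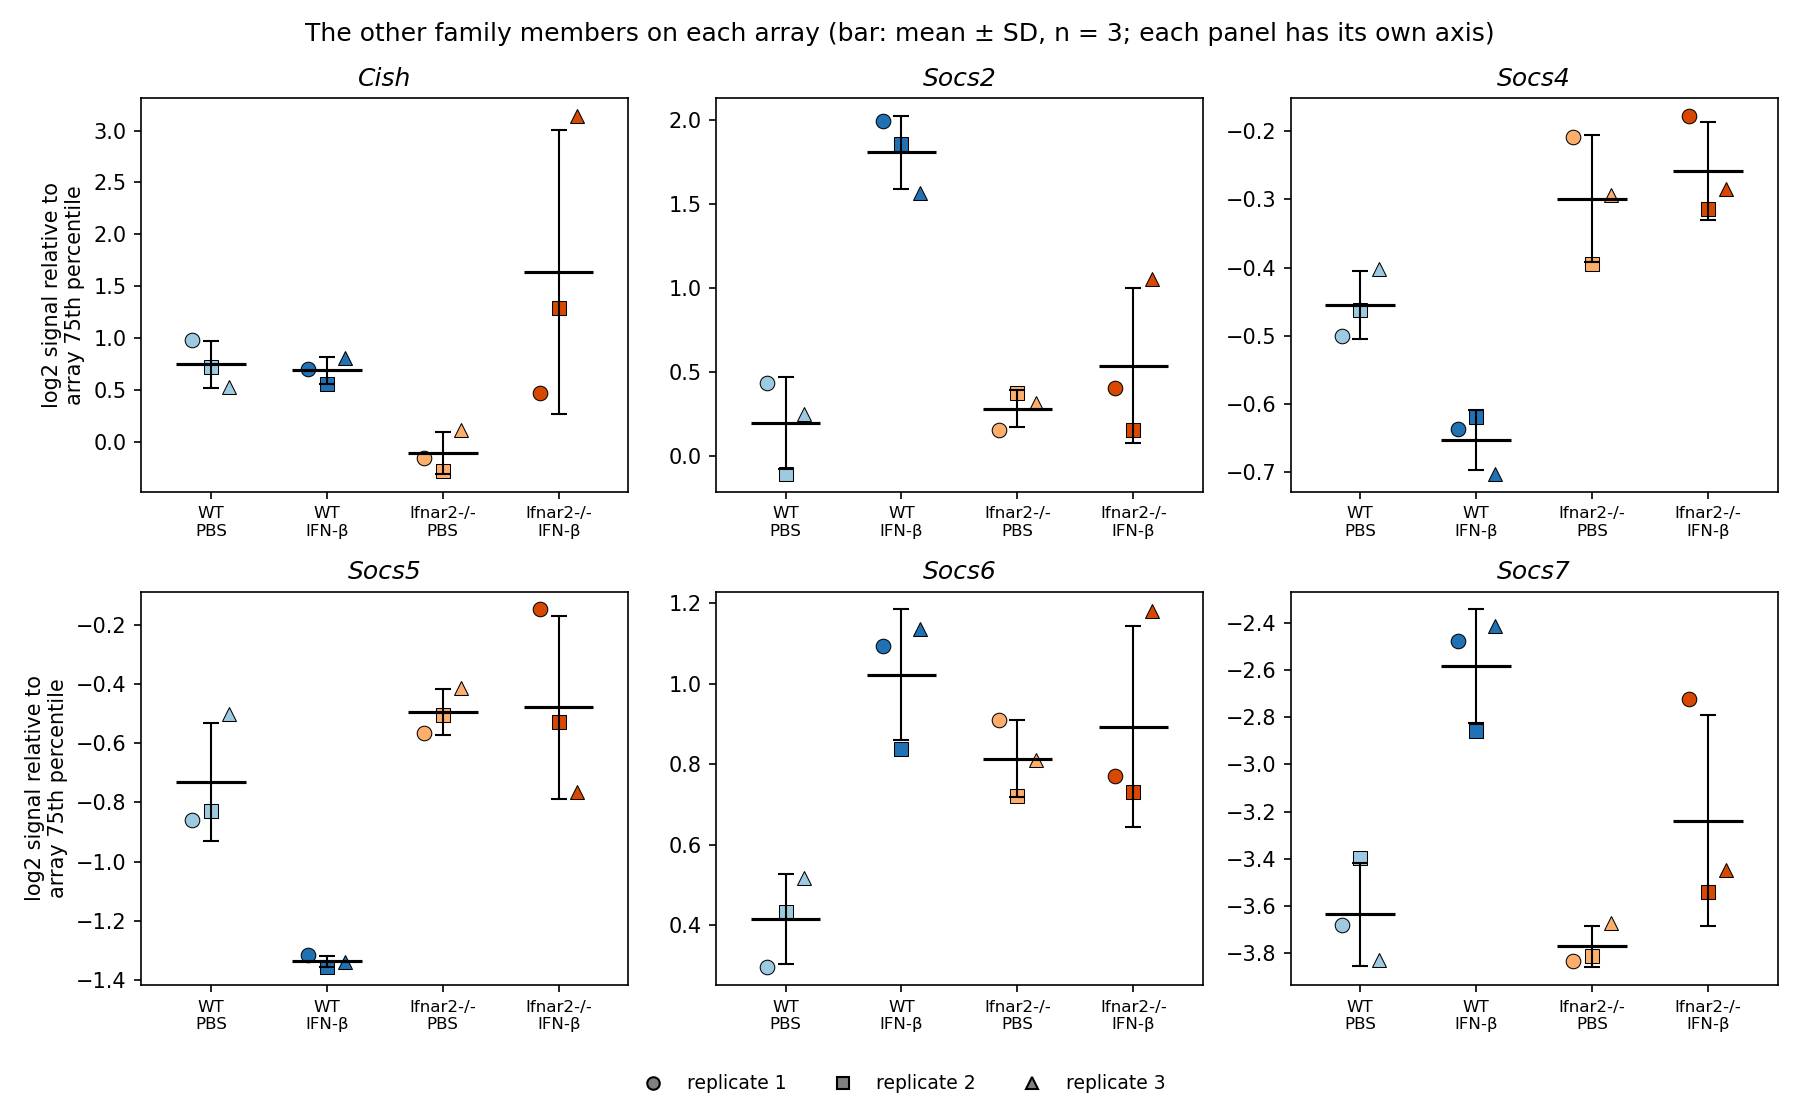
Log2 signal of Cish, Socs2 and Socs4 to Socs7 in the 4 groups, with 1 point per array, marker shapes for the replicate number and bars for the mean ± SD of 3 arrays; each panel has its own vertical axis. Socs2 and Socs7 were high in wild type with IFN-β, Socs5 was lowest there at -1.36 to -1.32, and Cish was highest on Ifnar2-/- IFN-β array 3 at 3.14.

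The genes around the SOCS proteins were read from 9 lists, to be set against 39.4% of all genes called and a median of -0.04 in wild type, and 1.13% and -0.05 in Ifnar2-/-. Unlike the members, a dim listed gene could pass the filter through 1 group where it was high. For such genes a rise in that group was partly set by the filter. Leaving out Ifnar2-/- PBS array 2 ended 10 of the 13 calls named below for the Ifnar2-/- response, with changes then of 0.73 to 3.41 and limma adjusted p of 0.0566 to 0.172. Those kept were Il6, Bcl3 and Oasl1. With the replicate number as a block within each genotype, 9 of the 13 lost their call, at limma adjusted p of 0.0546 to 0.0991, and those kept were Il6, Bcl3, Oasl1 and Csf2. With only the Ifnar2-/- groups in the fit, all the named calls except Il6 were lost, at limma adjusted p of 0.0563 to 0.277. Calls for Id1, Il1rn, Csf2rb, Sbno2 and Ube2f were also lost without several other arrays, and those for Il10 and Osm without each Ifnar2-/- PBS array. Of the 17 interferon targets, genes switched on directly by interferon, 17 rose in wild type with a median of 8.05, and 3 rose in Ifnar2-/-, where the median was 0.25. The response was lower in Ifnar2-/- for all 17. Rsad2, an antiviral enzyme, rose by 11.71 in wild type, Ifit3, an antiviral RNA-binding protein, by 10.11 and Cxcl10, a chemokine, by 13.75. In Ifnar2-/- Cxcl10 rose by 3.50, Cxcl9 by 1.98 and Oasl1 by 1.79, calls kept under 20, 16 and 21 of 23 alternatives. Cxcl10, Cxcl9 and Oasl1 were well above background on 1 of the 3 Ifnar2-/- PBS arrays, and Cxcl10 on 1 of 3 wild-type PBS arrays, so the sizes of these changes are uncertain. Of the same 17 genes, 12 were already lower in Ifnar2-/- after PBS, where none of the SOCS members passed.

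Among the 18 STAT3 targets, the counterpart list for Socs3, 10 rose in wild type (median 0.53) and 3 rose in Ifnar2-/- (median 0.63). The difference of the responses was past the threshold for 3 of them, 2 higher and 1 lower in Ifnar2-/-, with a median of -0.07 that turned to 0.16 with quantile scaling and 0.20 without scaling. Bcl3, a nuclear IκB protein, rose by 2.16 in wild type and by 1.73 in Ifnar2-/- (limma adjusted p = 1.7e-05 and 0.0040). The latter call was kept under 23 of 24 alternatives. Il1rn, the interleukin 1 receptor antagonist, rose by 4.52 and 3.44, the latter kept under 9 of 24 alternatives. Sbno2 rose by 0.83 in Ifnar2-/-, kept under 14 of 24, and Fgl2 rose by 3.54 in wild type with an Ifnar2-/- change of 0.64 that did not pass.

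Of the 11 STAT5 targets, the list closest to Cish and Socs2, 6 rose and 1 fell in wild type and 2 rose in Ifnar2-/-, with medians of 0.56 and 0.67. Osm, a cytokine of the interleukin 6 group, rose by 3.01 in wild type and 1.52 in Ifnar2-/-, the latter kept under 17 of 24 alternatives. Id1, an inhibitor of helix-loop-helix factors, rose by 1.66 in Ifnar2-/-, kept under 10 of 24. Ccnd2, a cyclin, rose by 1.99 in wild type, a call lost with slide as a block (2.16, limma adjusted p = 0.0547, the highest of 24 alternatives that began at 8.6e-05). Pim1, a kinase, rose by 1.24, and the change of Pim1 in Ifnar2-/- was 1.23 without passing.

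Cytokines that induce SOCS genes were higher in wild type, 10 of the 14 tested of 21 listed, with none lower and a median of 2.24, and 4 of 14 rose in Ifnar2-/-, with a median of 0.23. Dim genes such as Il10 entered only through groups where they were high, so these counts and medians are no test of direction. Il6, the classical inducer of Socs3 through STAT3, rose by 5.51 in wild type (SE 0.28, limma adjusted p = 1.9e-07) and by 3.47 in Ifnar2-/- (SE 0.28, limma adjusted p = 0.00047), a call kept under all 24 alternatives. Its response was lower in Ifnar2-/- by 2.04 (difference -2.04, limma adjusted p = 0.0047). Il15 rose by 4.66 and Ifng, the gene of interferon gamma and an inducer of Socs1, by 4.20 in wild type, with Ifnar2-/- changes of -0.53 and 0.27 that did not pass. Il10 was at least 8.23-fold higher with IFN-β in wild type and at least 2.07-fold higher in Ifnar2-/- (limma adjusted p = 0.0159 in Ifnar2-/-). These bounds were set by the dimmest signal well above background, since no PBS array measured it, and hold only for the processing used here. The lowest log2 change over the alternatives was 1.03 in wild type, and with normexp it was 0.41 in Ifnar2-/- (limma adjusted p = 0.156). The Ifnar2-/- call was kept under 17 of 23 alternatives. Csf2 was well above background on 1 of 3 Ifnar2-/- IFN-β arrays and on no Ifnar2-/- PBS array, so its Ifnar2-/- call (limma adjusted p = 0.0105) has no size, and with normexp it was lost (adjusted p = 0.289, the highest of 23 alternatives).

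**Figure D4:**
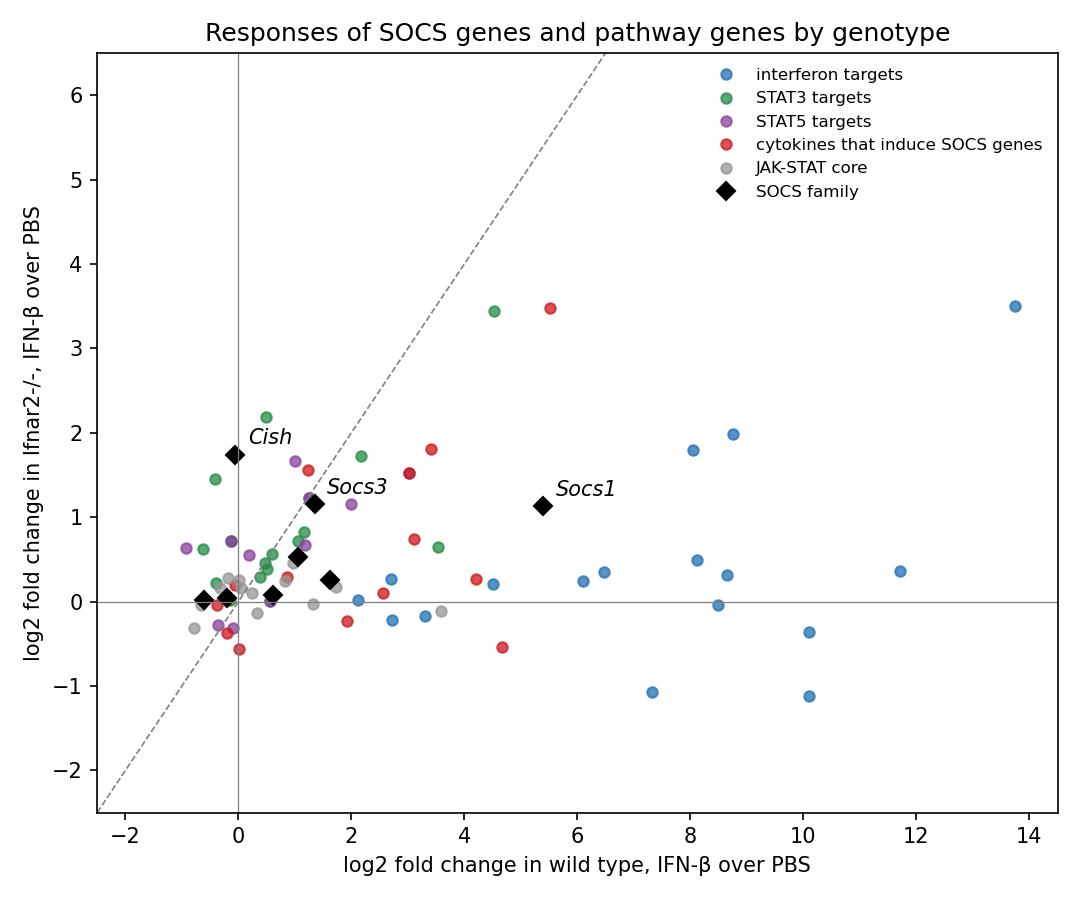
Log2 fold change of IFN-β over PBS on the horizontal axis for wild type and on the vertical axis for Ifnar2-/-, shown for the 8 SOCS genes (diamonds) and the genes of 5 lists (circles), with a dashed line where both are equal. Socs3 lay near the line at 1.35 and 1.15 and Cish above it at -0.06 and 1.74, whereas Socs1 at 5.40 and 1.13 lay below it, as did Il6 at 5.51 and 3.47.

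Of 13 genes of the JAK-STAT core, the machinery that SOCS proteins restrain, 5 rose and 2 fell in wild type and none passed in Ifnar2-/-. Stat2 rose by 3.58, Irf9, its DNA-binding partner at the ISRE, by 1.73 and Jak2, a kinase that SOCS1 inhibits, by 1.32 in wild type. Their Ifnar2-/- changes were -0.11, 0.17 and -0.03. Of 14 genes listed as other regulators of the pathway, most of them negative, 5 rose and 2 fell in wild type and none passed in Ifnar2-/-. Usp18, which blocks the type I interferon receptor at Ifnar2, rose by 8.12 and Nmi, a STAT-interacting protein, by 2.94, while Pias3, an inhibitor of STAT3, fell by 1.47 (change -1.47).

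Of 9 genes of the elongin and cullin 5 ligase, Ube2f, a NEDD8-conjugating enzyme, rose by 1.07 in wild type and by 0.88 in Ifnar2-/-, the latter kept under 11 of 24 alternatives, and Arih2, a ligase that works with cullin 5, fell by 0.37 in wild type (change -0.37); that call was lost without wild-type IFN-β array 1 and with normexp background correction. The other 7 did not pass in wild type. The list median of 0.06 in wild type turned to -0.10 with quantile scaling. Among 19 other genes with a SOCS box, 7 rose and 8 fell in wild type and none passed in Ifnar2-/-, with a wild-type median of 0.03 that turned to -0.09 with quantile scaling. Asb11 rose by 5.36, Asb4 by 2.89 and Asb13 by 2.51, all ankyrin repeat proteins, and Asb11 was above background on 1 of 3 wild-type PBS arrays. Asb11 passed the filter only through wild type with IFN-β, where it was high, so its rise is not independent of the filter.

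Of 30 receptors that SOCS proteins are known to restrain, 10 rose and 8 fell in wild type, and 1 rose in Ifnar2-/-. Osmr, the oncostatin M receptor chain, rose by 4.10 (1.73 with normexp, and well above background on 2 of 3 wild-type PBS arrays), Il15ra by 3.58 and Il12rb1 by 2.99 in wild type. Osmr passed the filter only through wild type with IFN-β, where it was high, so its rise is not independent of the filter. Csf2rb, the shared chain of the GM-CSF receptor, rose by 0.81 in Ifnar2-/-, kept under 7 of 24 alternatives. Several genes stood on more than 1 list, Osm, Pim1 and Usp18 among those named.

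The genes most like Socs1 and Socs3 over the 12 arrays were taken by Pearson's r among 6167 genes whose group means spanned at least 1 on the log2 scale. For Socs1 these were the transcript named NAP123224-1 (r = 0.994), Fgl2 (r = 0.990), the transcript named AK041569 (r = 0.989), Mxd1, a partner of MAX (r = 0.988), and Prkx, a protein kinase (r = 0.988). Their wild-type changes lay between 2.51 and 3.54 and their Ifnar2-/- changes between 0.38 and 0.85. For Socs3 they were Mob3c (r = 0.936), Pim1 (r = 0.935), Il6 (r = 0.931), Zfp36, which destabilises cytokine mRNA (r = 0.928), and Stat3 (r = 0.924). Their wild-type changes lay between 0.97 and 5.51 and their Ifnar2-/- changes between 0.46 and 3.47. Socs1 and Socs3 themselves correlated with r = 0.856 (Spearman's rho = 0.909). The 12 arrays share the 4 groups, so these coefficients mostly describe group means and carry no test.

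Markers of the cell types that the exudate can hold were summed on each array. The 9 large peritoneal macrophage, 9 B cell, 9 mast cell and 10 T and NK cell markers tested were each well above background on all 12 arrays. The summed signal of the neutrophil markers, 10 tested of 12 listed with 8 above background on every array and Camp and Ly6g not tested, was given in multiples of the 75th percentile. It was 111, 18.1 and 12.6 in wild type with PBS, 19.3, 19.2 and 26.7 in wild type with IFN-β, 24.2, 18.1 and 23.3 in Ifnar2-/- with PBS, and 39.2, 93.8 and 205 in Ifnar2-/- with IFN-β. All 3 Ifnar2-/- IFN-β arrays lay above their PBS arrays, although none of the 10 markers passed the limma test there. The order of those 3 arrays was that of Cish and Socs1, highest on array 3, but not that of Socs3, which was highest on array 2. Wild-type PBS array 1, also high in these markers, had the highest Cish (0.99), Socs1 (0.58), Socs2 (0.43) and Socs3 (5.08) signals of its group. In Ifnar2-/- with PBS, array 1 had the highest sum but the lowest Socs1 (-0.66), with Cish (-0.15) and Socs3 (4.42) between the other arrays. In wild type with IFN-β, array 3 had the highest sum, Cish (0.81) and Socs3 (6.65), but not the highest Socs1 (5.81). The part of these markers in the Cish, Socs1 and Socs3 values was not tested.

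**Figure D5:**
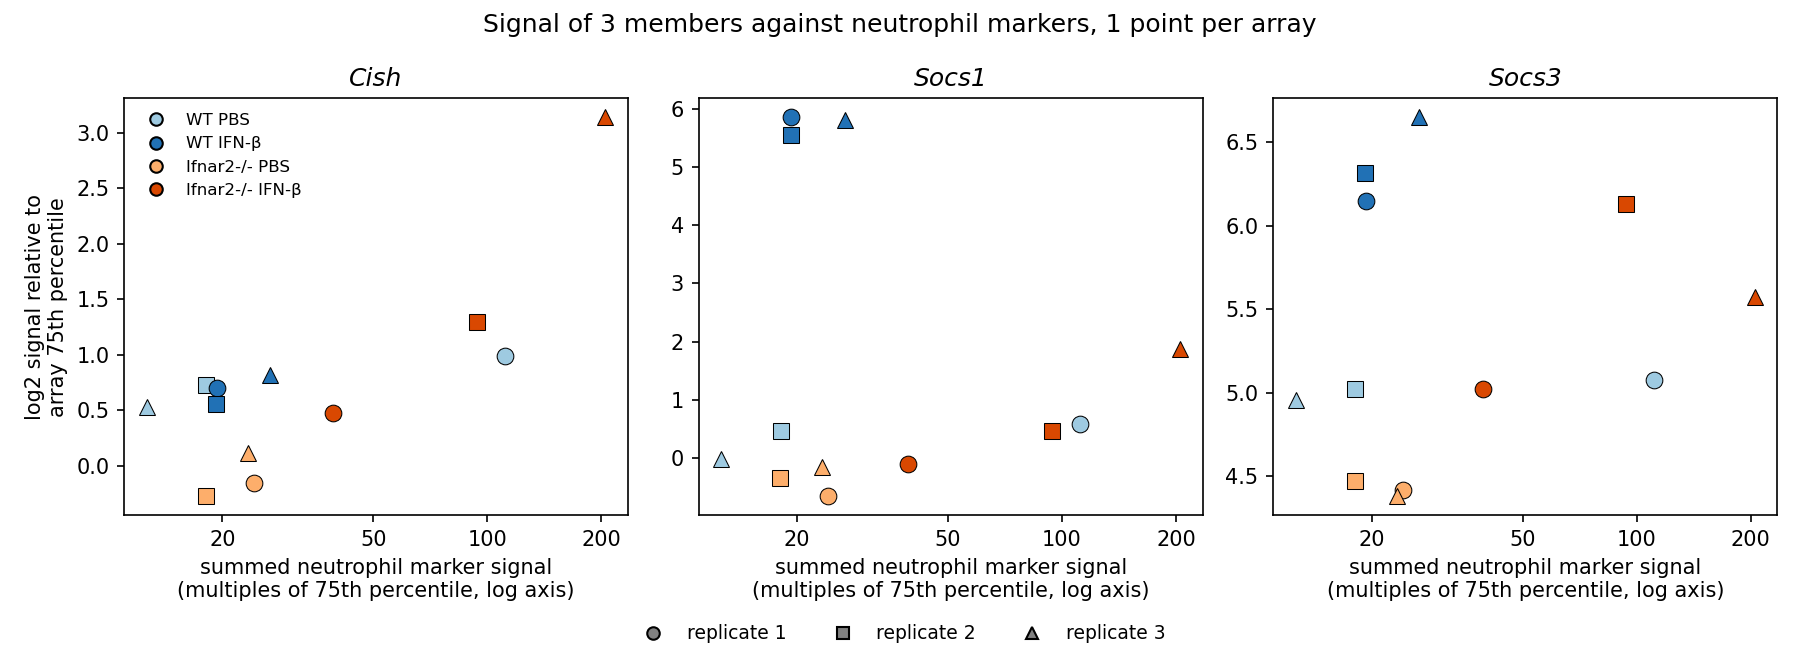
Log2 signal of Cish, Socs1 and Socs3 (vertical axes) against the summed signal of 10 neutrophil markers (horizontal log axis, multiples of the 75th percentile), with 1 point per array coloured by group and shaped by replicate. Ifnar2-/- IFN-β array 3, at 205, carried the highest Cish signal, while the wild-type IFN-β arrays combined the highest Socs1 and Socs3 signals with sums of 19.2 to 26.7.

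The 8 monocyte markers tested of 9 listed, all above background on every array, summed to 330 to 353 in wild type with IFN-β and to 185 to 188 in wild type with PBS, 176 to 207 in Ifnar2-/- with PBS and 166 to 193 in Ifnar2-/- with IFN-β. Wild type with IFN-β was also the group with the highest Socs1, Socs2 and Socs3 values. Singly, 5 of these 8 monocyte markers rose in wild type and 3 did not pass (39.4% of all genes passed). None passed in Ifnar2-/- (1.13%). After IFN-β, 5 were lower and 1 higher in Ifnar2-/- (38.5%). The 9 mast cell markers summed to 201 to 283 with PBS and 177 to 203 with IFN-β in wild type and to 304 to 366 and 292 to 330 in Ifnar2-/-, the genotype in which Socs5 and 1 of 3 Socs4 probes were higher after IFN-β, with no such call after PBS. The 10 T and NK cell markers summed to 6.37 to 7.28 with PBS and 4.8 to 5.29 with IFN-β in wild type, and to 7.14 to 12.7 and 6.89 to 8.85 in Ifnar2-/-. The 7 mesothelial and stromal markers tested of 8, of which 5 were above background on every array, had sums that did not overlap in either genotype, at 1.84 to 2.26 against 1.19 to 1.40 in wild type and 2.00 to 2.37 against 1.23 to 1.62 in Ifnar2-/-. The 9 B cell markers summed to 188 to 278 and 189 to 233 in wild type and to 175 to 239 and 169 to 189 in Ifnar2-/-. The 7 dendritic cell markers, 4 of them above background on every array, spanned 1.51 to 4.75, and the 3 erythroid ones tested of 5 spanned 2.62 to 226. The summed signal of the 9 large peritoneal macrophage markers overlapped between all groups, from 367 to 536. Single markers still passed the limma test. Of these 9, 2 rose and 2 fell in wild type, as did 4 of the B cell markers, all downward, where 39.4% of all genes passed. In Ifnar2-/-, 3 of the macrophage markers were higher after PBS (4.88% of all genes passed). After IFN-β, 4 were higher and 2 lower (38.5%). The part of these cells in the SOCS values was not tested.

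The chosen probes lie, on the mm7 build named in the file headers, at chr16:10461534-10461593 for Socs1, chr11:118075211-118075270 for Socs3, chr9:107031313-107031372 for Cish, chr10:94973417-94973476 for Socs2, chr14:42623090-42623149 for Socs4, chr17:85439602-85439661 for Socs5 and chr11:97502461-97502520 for Socs7. The sources used here do not place them in coding or untranslated exons. Coordinates of the promoter sequences above are on another build and cannot be set against these.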

How the data were processed

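The 12 one-colour Agilent arrays had 3 in each of 4 groups. Per the file headers, the authors read the spots with version 9.5.3.1 of Agilent's Feature Extraction software, with spatial detrending switched on. The deposited processed signal is a linear intensity, with no scaling of one array to another. The deposited value table held the same intensities (0 of 45018 features differed). Deposited flags give, for each spot, whether it is an outlier, is saturated or exceeds the background. Array number and brightness limit the precision.

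Here log2 of the processed signal was taken minus the 75th percentile of each array. Control and outlier spots were left out. The filter required a probe to exceed background clearly on every array of some group, with values on 6 or more arrays, and left 27715 probes. Each gene was represented by its probe of highest mean signal, 18274 genes in all. Genes were named from the probe's accession (22951 probes), symbol (6659), older symbol (3109) or, failing these, the name in the files (8455). limma 3.58.1 in R 4.3.3 fitted 4 group means to all arrays. The procedure was run on simulated data with independent noise and changes set in wild type with IFN-β alone. Such data hold no slide effect and no pairing of arrays, so they say nothing about these. Named genes were all 8 members, up to 3 genes of largest change past the threshold per list in each genotype's response, and the 5 genes most like Socs1 and Socs3. One gene of a list is not reported here. The members and lists were chosen with earlier results of these data known. Promoter windows came from RefSeq (GRCm38.p6).

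The 3 slides were each scanned at their own time. Slide 1 held wild-type PBS and wild-type IFN-β array 1. Slide 2 held the other wild-type arrays and array 1 of both Ifnar2-/- groups, and slide 3 the rest. Replicate numbers are shared by all groups, and the design text speaks of independent experiments. Same-numbered Ifnar2-/- arrays deviated together, most for number 1 and weakly for the others (r = 0.51, 0.19 and 0.10). Each such pair also shares a slide, so whether the numbers pair arrays was not settled. Wild-type arrays did not deviate together (0.03, -0.12 and -0.12). The within-genotype replicate block was added after seeing the data. It left 58 genes called for Ifnar2-/- against 207 without it, with no member's call changed and 9 of 13 named pathway calls lost. Alternatives were scaling, background correction, filter, probe choice, slide, block, moderation, samples in the fit and leaving out each array.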

Additional observations from a re-analysis of the deposited data

Results flagged for a closer look

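The response to IFN-β differed between the genotypes, by limma's test of the difference itself, for 2 SOCS members and 24 named genes. Values are the Ifnar2-/- response minus the wild-type response on the log2 scale. Socs1 differed by -4.27 and Socs2 by -1.36.

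Among interferon targets the differences were -11.34 for Rsad2, -11.22 for Ifit3, -10.25 for Cxcl10, -7.62 for Usp18, -6.77 for Cxcl9 and -6.26 for Oasl1. Among the cytokines they were -5.19 for Il15, -3.93 for Ifng, -2.04 for Il6, -1.61 for Il10 and -1.49 for Osm. The receptors Il15ra, Osmr and Il12rb1 differed by -4.11, -3.09 and -2.49. In the JAK-STAT core the values were -3.70 for Stat2, -1.56 for Irf9 and -1.35 for Jak2, and among STAT3 targets -2.89 for Fgl2.

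Of the other genes with a SOCS box, Asb11 differed by -4.71, Asb13 by -2.74 and Asb4 by -2.42. Nmi, from the list of other regulators, differed by -2.74. Pias3 and Arih2, which fell in wild type, had the higher response in Ifnar2-/-, by 1.15 and 0.54. Their Ifnar2-/- changes were -0.32 and 0.17 and did not pass. Where a gene was dim these are fitted values, not measured sizes. Osmr and Asb11 passed the filter only through wild type with IFN-β, so their differences are not independent of the filter. Il10 was well above background on no PBS array, and in Ifnar2-/- Osmr was on none with PBS and 1 of 3 with IFN-β. Rsad2 and Ifit3 were on 1 of 3 Ifnar2-/- IFN-β arrays, Usp18 and Asb11 on 2 of 3, and Cxcl10, Cxcl9 and Oasl1 on 1 of 3 Ifnar2-/- PBS arrays. With normexp the value was -0.62 for Il10, which did not pass (limma adjusted p = 0.0538, the alternatives reaching 0.106), and -1.63 for Osmr. The call for Arih2 was kept under 15 of 23 alternatives, for Il10 under 20, for Osm under 21, for Osmr under 21 of 22 and for Socs2 under 22 of 23.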

How the results depend on the processing

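All 6 wild-type calls, the Socs1 responses and the Socs1 genotype difference after IFN-β kept their direction under the 24 settings, and no called value changed sign. The uncalled Socs3 difference of responses changed sign under 4 settings (-0.48 to 0.10). Wild-type calls for Socs5 and Socs6 were lost under the settings named above. The Socs3 response in Ifnar2-/- passed at 1.27 without scaling (limma adjusted p = 0.0478), 1.12 with normexp (0.0205), and 1.15 both with probes above background on all arrays (0.0358) and with robust moderation (0.0221), so 1 member was called under each of these 4. The Socs3 genotype difference after IFN-β was -0.59 with quantile scaling (0.0767), -0.42 without scaling (0.195) and -0.80 with only those groups (0.0936), and after PBS it passed at -0.60 with only those groups (0.0235). With only the groups compared, 3 members differed after IFN-β and 2 after PBS. Counts over all genes with slide as a block were 4427 for wild type, 118 for Ifnar2-/-, 1921 for the difference, 31 after PBS and 4359 after IFN-β. For the Ifnar2-/- response they were 333 with normexp, 68 without the filter, 359 with robust moderation and 13 with only those groups.

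Leaving out each array gave 32 to 305 genes for the Ifnar2-/- response (lowest without its PBS array 2) and 433 to 1284 for the genotype difference after PBS (lowest without wild-type PBS array 1). Members called ran from 0 to 2 for the Ifnar2-/- response, 2 to 5 for the difference (5 without Ifnar2-/- IFN-β array 3) and 0 to 1 after PBS. Socs3 ran from 0.88 to 1.43 in Ifnar2-/- and from -1.07 to -0.52 between genotypes after IFN-β.

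The planned replicate block gave 6990 genes for wild type, 138 for Ifnar2-/- and 3000 for the difference, and the block within each genotype 6883, 58 and 2721. The latter ended 9 of 13 named Ifnar2-/- calls and the planned block 3 (Csf2rb, Id1 and Il1rn). Neither changed a member's call, Socs3 in Ifnar2-/- having an adjusted p of 0.0984 in the latter. Of 702 values of the other members, 677 kept their side of the threshold, 12 of them with a changed sign and uncalled, 15 lost a call and 10 gained one. Of 2313 values of named pathway genes, 2186 kept theirs, 24 with a changed sign. Without scaling, the all-gene median moved from -0.04 to -0.21 in wild type, from 0.03 to 0.31 for the difference and from 0.08 to 0.46 between genotypes after IFN-β, and the share of higher calls from 44.7 to 30.6%, 48.8 to 71.2% and 55.3 to 80.8%. Other causes were not tested. Slide 3 had a detection limit of -5.46 to -5.02, against -6.66 to -6.07 on the others.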
